A study of Bos taurus with 20 samples.

Results

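Genes of the proteasome and of the ubiquitin-conjugating enzymes were followed in bovine embryos at day 14. They were the protein-coding genes of the deposited table whose symbols begin with PSMA to PSMG and a number, 48 genes, or with UBE2, 28 genes, with UBE2C left out. These 76 genes stood among 15542 in all, of which 15027 were protein coding. By role they comprised the 14 constitutive subunits of the core, 4 inducible or tissue-limited beta subunits, 17 subunits of the regulatory particle, 4 alternative activators, 7 assembly chaperones, PSMF1, PSMC3IP and the 28 E2 genes. PSMC3IP enters through its symbol alone, since it encodes a partner of meiotic recombination and no subunit. The test took genes with at least 10 reads in at least 2 libraries, which kept 74 of the 76 and left out PSMB8 and PSMB11.

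The proteasome is the large protease that degrades proteins tagged with chains of ubiquitin. Its barrel-shaped core holds the proteolytic sites inside stacked alpha and beta rings, and the regulatory particle at its ends recognises, unfolds and feeds in the tagged protein. Ubiquitin is activated by an E1 enzyme, handed to an E2 conjugating enzyme and attached to the target with the help of an E3 ligase, so the E2 genes stand upstream of the core. In early embryos this system clears maternal proteins, and in dividing cells it removes the regulators of mitosis.

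RNA was sequenced from 2 vitrified whole embryos, 6 fresh whole embryos, 7 trophectoderm (TE) samples of vitrified embryos and 5 TE samples of fresh embryos. Vitrified embryos had been cryopreserved by glass-forming cooling and fresh embryos had not, and all were flushed from the uterus at day 14. The TE is the outer epithelium that will form the placenta, and a whole embryo also holds epiblast and hypoblast. The design counts 9 vitrified and 12 fresh embryos, and samples are not tied to embryos in the labels, which name no breed, sex or batch either. P-values therefore measure the spread between these samples, which may in part be technical.

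Values were RPKM, that is reads divided by kilobases and by the library's M of reads, with M for 1000000. The kilobases were those of the gene's genomic span with its introns, so levels were compared between samples and not between genes. Libraries held 6.01 to 14.53 M reads, and 2.03 to 8.73 M of them lay in the listed genes. Fresh TE (5 libraries) differed from the other 3 groups in makeup: the share of reads in listed genes was 38.0 ± 2.83% there (SD, n = 5), against 57.5 to 63.9% elsewhere, and mitochondrially encoded messenger RNA took 1.23 ± 0.144% of listed-gene reads in fresh TE, against 8.04 ± 1.44% in vitrified TE (SD, n = 7). Fresh TE 1 and 2, and fresh TE 3 and 4, were near identical (chi-square per degree of freedom 1.79 and 1.45, and 10.3 to 19.5 for the other fresh TE pairs). These features of fresh TE follow the groups, so they cannot be told apart from vitrification in vitrified against fresh TE, nor from the tissue in fresh whole embryos against fresh TE. The difference of vitrification effects between whole embryos and TE also includes fresh TE, so the same limit holds for it.

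Trophectoderm markers summed to 2288 to 2732 RPKM in vitrified whole embryos, 1412 to 2115 in fresh whole embryos, 1958 to 2954 in vitrified TE and 2270 to 2889 in fresh TE (9 of 9 markers found, none at 0 in any library). KRT8 and KRT18 made up most of each sum. With the deposited scaling 4 of 9 were higher and 4 lower in vitrified against fresh TE, beside 69.0% and 6.66% of all tested genes. In fresh whole embryos against fresh TE 2 were higher and 7 lower, beside 60.0% and 5.97%. PAG2 had 0.833 to 3.35 RPKM in vitrified TE and 39.6 to 79.6 in fresh TE. KRT8 had 688 to 976 and 141 to 183 RPKM in turn. Epiblast markers (6 of 6 found) summed to 1.81 and 29.7 RPKM in the 2 vitrified whole embryos, 2.10 to 10.1 in fresh whole embryos, 2.45 to 4.14 in vitrified TE and 0.397 to 0.769 in fresh TE. SALL4 made up most of the vitrified TE sums, at 1.73 to 2.93 RPKM, against 0.512 to 0.888 in fresh whole embryos. POU5F1 and NANOG went the other way. POU5F1 had 0.302 to 1.25 RPKM in vitrified TE and 1.05 to 6.01 in fresh whole embryos, and NANOG 0 to 0.174 and 0.381 to 2.53. Hypoblast markers (6 of 6 found) summed to 3.18 and 3.64 RPKM in vitrified whole embryos, 0.751 to 4.06 in fresh whole embryos, 3.01 to 6.53 in vitrified TE and 0.0595 to 0.482 in fresh TE. The sums of the epiblast and hypoblast lists were thus lower in fresh TE than in every library of the other 3 groups. Vitrified TE was not below fresh whole embryos in the sum of hypoblast markers. Blood and immune markers (5 of 8 found) summed to 3.64 to 7.20 RPKM in those 3 groups and 9.71 to 15.8 in fresh TE, a sum carried by AIF1, at 0.341 to 1.85 RPKM in those 3 groups and 8.83 to 15.3 in fresh TE. Of the 4 such markers tested, AIF1 was called lower and the other 3 higher in vitrified TE against fresh TE with the deposited scaling, and likewise in fresh whole embryos against fresh TE. The part of these cell types in the differences below was not tested, and in such bulk samples fewer cells of a type cannot be told apart from less RNA per cell.

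Per listed-gene read, proteasome core subunits were more abundant in whole embryos than in TE by group mean, and regulatory particle subunits stood highest in vitrified whole embryos. Core reads numbered 8163 and 8199 per M listed-gene reads in the 2 vitrified whole embryos, 9321 ± 1961 in fresh whole embryos (SD, n = 6), 5683 ± 750 in vitrified TE (n = 7) and 5430 ± 382 in fresh TE (n = 5). Regulatory particle reads numbered 3243 and 3792 in vitrified whole embryos, 2771 ± 315 in fresh whole embryos, 2647 ± 155 in vitrified TE and 2409 ± 182 in fresh TE. The core sums of fresh TE lay inside the range of vitrified TE, 4693 to 6380, and so did that of fresh whole embryo 4, at 6191. Both vitrified whole embryos exceeded every fresh whole embryo in regulatory particle reads.

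**Figure D1:**
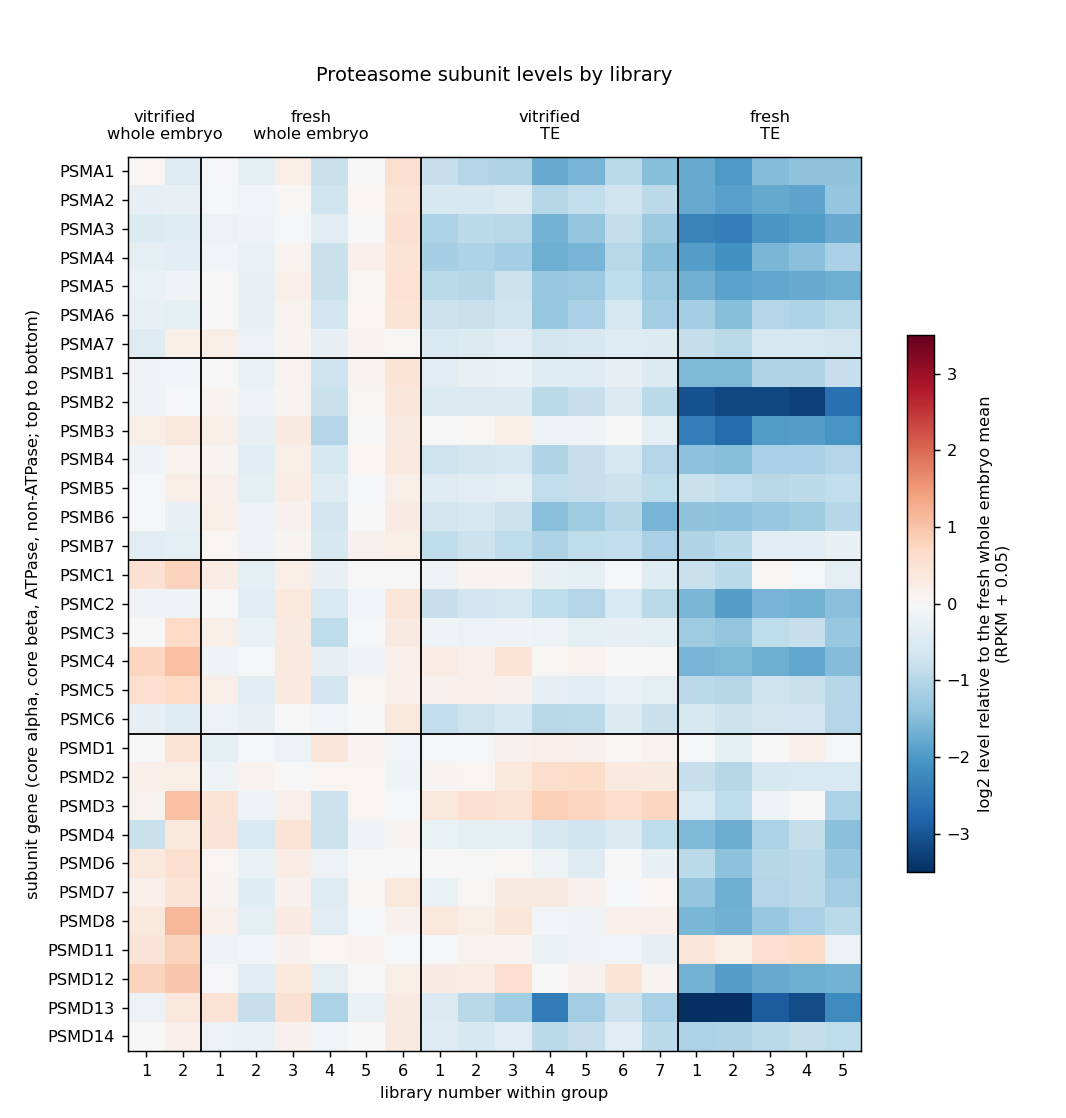
Level of the 31 constitutive proteasome subunits in each of the 20 libraries, as log2 of (RPKM + 0.05) relative to the mean of the fresh whole embryos, by role from top to bottom. Columns run from vitrified whole embryos through fresh whole embryos and vitrified TE to fresh TE; with the deposited scaling the 5 fresh TE columns are the lowest for many subunits, among them PSMB2, PSMB3, PSMC4 and PSMD12, and PSMD11 is an exception. PSMD13 is the darkest there and rests on 0 to 13 reads per library.

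The first comparison asked how TE of vitrified embryos differed from TE of fresh ones, in a limma model of log2(RPKM + 1) with p-values adjusted over all 10599 tested genes at a threshold of 0.05. Of the 74 tested members 51 were higher in vitrified TE (68.9%), against 69.0% of all tested genes, and 1 was lower, against 6.66%. By ratio of mean RPKM, the core subunits had a median of 1.35, the regulatory particle 1.86 and the E2 genes 2.55, while the median over all tested genes was 2.45. Only 2 of 14 core subunits and 5 of 17 regulatory particle subunits exceeded that all-gene median, against 14 of 28 E2 genes. The direction of many members depended on the scaling of the libraries, which moved the median log2 change of all tested genes to 0.18 with the deposited values, 0.10 per M listed-gene reads, 0.01 with median-ratio scaling and -0.01 with quantile normalization. Of the 74 members 42 changed sign between these scalings. Sign changes were not counted over all tested genes, so this is not given as a trait of the members. The split of 51 higher and 1 lower became 31 and 16 per M listed-gene reads, 19 and 32 with median-ratio scaling and 18 and 32 with quantile normalization. Over all 10599 tested genes, 7311 higher and 706 lower became 5237 and 1665, 3720 and 2920, and 2776 and 4100 in turn. Without overlap, 40 members lay higher in vitrified TE, against 54.6% of all tested genes, and none lay lower, against 3.96%. Under all 4 scalings 17 members were called higher, 23.0% of the 74, against 25.4% of all tested genes, and PSMD11 alone was called lower, against 6.66% of all tested genes.

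Of the 14 core subunits, 7 were called higher in vitrified TE and the other 7 did not pass, beside 69.0% of all tested genes higher. This split of 7 higher and none lower became 3 and 4 per M listed-gene reads, 2 and 9 with median-ratio scaling and 2 and 7 with quantile normalization. These stood beside 5237 and 1665, 3720 and 2920, and 2776 and 4100 of the 10599 tested genes. The beta ring subunits PSMB2 and PSMB3 were the 2 core subunits called higher under every scaling. PSMB2 (chromosome 3, 110720283 to 110756535 on UMD3.1, plus strand) had 8.53 to 11.8 RPKM in the 7 vitrified TE samples with a median of 11.6, against 1.96, 1.76, 1.76, 1.65 and 2.66 RPKM in the 5 fresh TE samples. Every vitrified TE sample lay far above every fresh one. The ratio of means was 5.35, with a log2 change of 1.95 ± 0.15 (SE) and an adjusted p of 2.03e-09 by limma. PSMB3 (chromosome 19, 39980435 to 39989909) had 32.1 to 47.5 RPKM in vitrified TE with a median of 40.6, against 7.62, 6.27, 10.4, 10.7 and 9.78 RPKM in fresh TE, again without overlap (4.39 times higher, log2 change 2.03 ± 0.19, limma adjusted p = 2.10e-08).

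Other core subunits differed far less in RPKM between the same samples. PSMA7, an alpha ring subunit, had 55.3 to 66.2 RPKM in vitrified TE with a median of 61.5, against 48.2, 44.7, 56.6, 56.4 and 55.4 RPKM in fresh TE. The 2 groups overlapped at the edges of their ranges, and PSMA7 was not called with the deposited scaling. PSMB7, which carries the trypsin-like site of the core, had 2.05 to 2.68 RPKM in vitrified TE, against 2.15, 2.34, 3.45, 3.53 and 3.78 RPKM in fresh TE, and was not called either. PSMB5, the subunit with the chymotrypsin-like site, had 37.7 to 54.6 RPKM in vitrified TE and 35.1 to 40.8 RPKM in fresh TE, with overlap and no call. With each of the 3 other scalings PSMA7, PSMB7 and PSMB5 were called lower in vitrified TE, at log2 changes of -0.40 to -0.88, -0.81 to -1.15 and -0.38 to -0.86 in turn. PSMA5 was called higher (8.28 ± 1.33 against 5.02 ± 0.264 RPKM, limma adjusted p = 0.00164), but its log2 change turned to -0.36 with median-ratio scaling.

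In the regulatory particle 13 of 17 subunits were called higher in vitrified TE and 1 lower, beside 69.0% and 6.66% of all tested genes. These counts became 8 and 4 per M listed-gene reads, and 4 and 5 with median-ratio scaling as with quantile normalization. The all-gene counts beside them were 5237 and 1665, 3720 and 2920, and 2776 and 4100 of 10599. PSMC4, a subunit of the ATPase ring that unfolds substrates, had 7.21 to 10.2 RPKM in vitrified TE with a median of 7.96, against 2.33, 2.41, 2.19, 2.04 and 2.53 RPKM in fresh TE. The 2 groups did not overlap (3.56 times higher, log2 change 1.47 ± 0.10, limma adjusted p = 4.92e-10). PSMD12, a scaffold subunit of the lid, had 4.19 to 6.15 RPKM with a median of 4.96 in vitrified TE, against 1.26, 1.05, 1.17, 1.21 and 1.27 RPKM in fresh TE, also without overlap (4.19 times higher, log2 change 1.44 ± 0.11, adjusted p = 8.45e-10). PSMD8, another lid subunit, was 2.81 times higher (17.4 ± 2.46 against 6.20 ± 1.36 RPKM, adjusted p = 3.07e-07). These 3 were called higher under all 4 scalings. PSMD13, a further lid subunit, had 0.187 to 0.862 RPKM in vitrified TE, against 0.0582, 0, 0.122, 0.0977 and 0.231 RPKM in fresh TE, from 13 to 70 and 0 to 13 reads, so its call rested on few reads. PSMC6, an ATPase, and PSMD1, a scaffold of the base, were not called with the deposited scaling and were lower with the 3 others, with PSMC6 at 1.42 to 2.0 RPKM in vitrified TE and 1.35 to 1.90 RPKM in fresh TE. In the table's coordinates PSMD1 lies inside the span of PTMA on the same strand. In the same coordinates PSMC4 (chromosome 18, 49688182 to 49699039, plus strand) lies wholly inside the span of FBL on the minus strand, and whether counting used strand is not given in the sources used here, so reads of the pair may be shared.

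PSMD11, the lid subunit that helps to hold the regulatory particle on the core (chromosome 19, 18035610 to 18064854, minus strand), was the exception. It had 2.60 to 3.52 RPKM in vitrified TE with a median of 3.03, against 4.30, 3.72, 4.87, 5.05 and 2.80 RPKM in fresh TE. Fresh TE 5 lay inside the vitrified range and the other 4 fresh TE samples lay above it. The mean was 1.37 times lower in vitrified TE (log2 change -0.33 ± 0.11, limma adjusted p = 0.00814). The call was lost once the near-identical fresh TE libraries were averaged (adjusted p = 0.0643, with a range of 1.13e-09 to 0.0643 over 33 alternatives).

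All 7 assembly chaperones were called higher in vitrified TE by the deposited scaling, beside 69.0% of all tested genes. Under all 4 scalings PSMG2 and PSMD5 alone were called higher, beside 25.4% of all tested genes. PSMG2, which helps the alpha ring to form, had 6.63 to 10.6 RPKM with a median of 9.67 in vitrified TE, against 2.46, 2.56, 1.5, 1.76 and 2.18 RPKM in fresh TE, without overlap (4.20 times higher, log2 change 1.66 ± 0.17, limma adjusted p = 6.21e-08). PSMD5, a chaperone of the base of the regulatory particle, had the widest ratio among the PSM genes, at 16.3, from 95 to 201 reads per library in vitrified TE and 6 to 10 reads in fresh TE. Its RPKM ran from 0.565 to 1.23 in vitrified TE and from 0.0391 to 0.0789 in fresh TE, so the groups lay far apart, though at a low depth in fresh TE. PSMG1, PSMD9 and PSMD10 were also called higher, but were called lower with median-ratio scaling and with quantile normalization. PSMF1, an inhibitor of the core in vitro, had 0.327 to 0.496 RPKM in vitrified TE and 0.0492 to 0.111 RPKM in fresh TE, from 111 to 180 and 13 to 27 reads, and was called higher under all 4 scalings. Of the alternative activators, which open the core without the ATPase ring, PSME3 alone was called by the deposited scaling (2.91 times higher, 4.15 ± 1.13 against 1.43 ± 0.508 RPKM), while PSME1, PSME2 and PSME4 were called lower with each of the 3 others.

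Of the 28 E2 genes, 22 were called higher in vitrified TE and none lower by limma, while at an unadjusted p under 0.05 1 was lower. Beside 69.0% of all tested genes higher, the E2 split of 22 and none became 15 and 4 per M listed-gene reads, 10 and 10 with median-ratio scaling and 9 and 12 with quantile normalization. Under these 3 scalings 5237 and 1665, 3720 and 2920, and 2776 and 4100 of the 10599 tested genes were higher and lower. UBE2S, which extends ubiquitin chains on targets of the anaphase-promoting complex, showed the largest log2 change of all members with at least 1 RPKM. UBE2S (chromosome 18, 62537351 to 62541237, plus strand) had 150 to 284 RPKM in vitrified TE with a median of 206, against 17.2, 18.8, 24.9, 26.5 and 19.6 RPKM in fresh TE. The lowest vitrified TE sample stood several fold above the highest fresh one. The ratio of means was 9.38, with a log2 change of 3.16 ± 0.22 and a limma adjusted p of 4.06e-10.

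Several E2 genes of other roles were also higher under every scaling. UBE2J2, an E2 of protein quality control at the endoplasmic reticulum, had 6.90 to 11.6 RPKM in vitrified TE with a median of 8.92, against 2.42, 2.20, 3.16, 2.61 and 1.76 RPKM in fresh TE (3.67 times higher, log2 change 1.53 ± 0.11, limma adjusted p = 7.30e-10). UBE2Q1 had 3.31 to 4.03 RPKM with a median of 3.63 in vitrified TE, against 0.708, 0.809, 0.866, 0.784 and 1.32 RPKM in fresh TE (4.07 times higher, log2 change 1.30 ± 0.08, adjusted p = 5.79e-11). UBE2T, the E2 of the Fanconi anaemia repair pathway, averaged 6.29 ± 1.36 RPKM in vitrified TE and 1.91 ± 0.321 in fresh TE (adjusted p = 2.84e-07). In none of the 3 did the groups overlap. UBE2M, the E2 that charges NEDD8, was 3.60 times higher at 3.39 ± 0.831 against 0.940 ± 0.460 RPKM (adjusted p = 2.30e-05), and its fresh TE values rested on 7 to 37 reads per library. UBE2R2, an E2 of cullin ligases, had the widest ratio of all members, 17.6, but on 21 to 55 reads in vitrified TE and 0 to 3 reads in fresh TE.

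UBE2N, which builds chains for signalling and repair, had 2.59 to 3.89 RPKM in vitrified TE with a median of 3.13, against 0.979, 0.954, 0.742, 0.798 and 0.875 RPKM in fresh TE, a gap without overlap. Its partner UBE2V1 had 2.36 to 3.72 RPKM in vitrified TE and 2.74 to 3.12 RPKM in fresh TE, and was not called with the deposited scaling but lower with the 3 others. UBE2L3, a partner of HECT ligases, averaged 29.9 ± 2.86 RPKM in vitrified TE and 14.3 ± 4.46 in fresh TE without overlap, but its log2 change of 1.06 became -0.0017 with median-ratio scaling. Among the close relatives UBE2D1, UBE2D2 and UBE2D4, whose reads counting may split unevenly, UBE2D1 and UBE2D4 were called higher by the deposited scaling (UBE2D1 from 28 to 56 reads per library in vitrified TE and 4 to 12 in fresh TE, while UBE2D4 turned sign with quantile normalization) and UBE2D2 was called lower only with the 3 other scalings, at 1.48 to 1.77 RPKM in vitrified TE and 1.33 to 1.54 RPKM in fresh TE. UBE2K, an E2 that was not called in any comparison with the deposited scaling but was lower in vitrified TE with the 3 others, had 0.760 to 1.20 RPKM in vitrified TE and 1.0 to 1.26 RPKM in fresh TE.

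**Figure D2:**
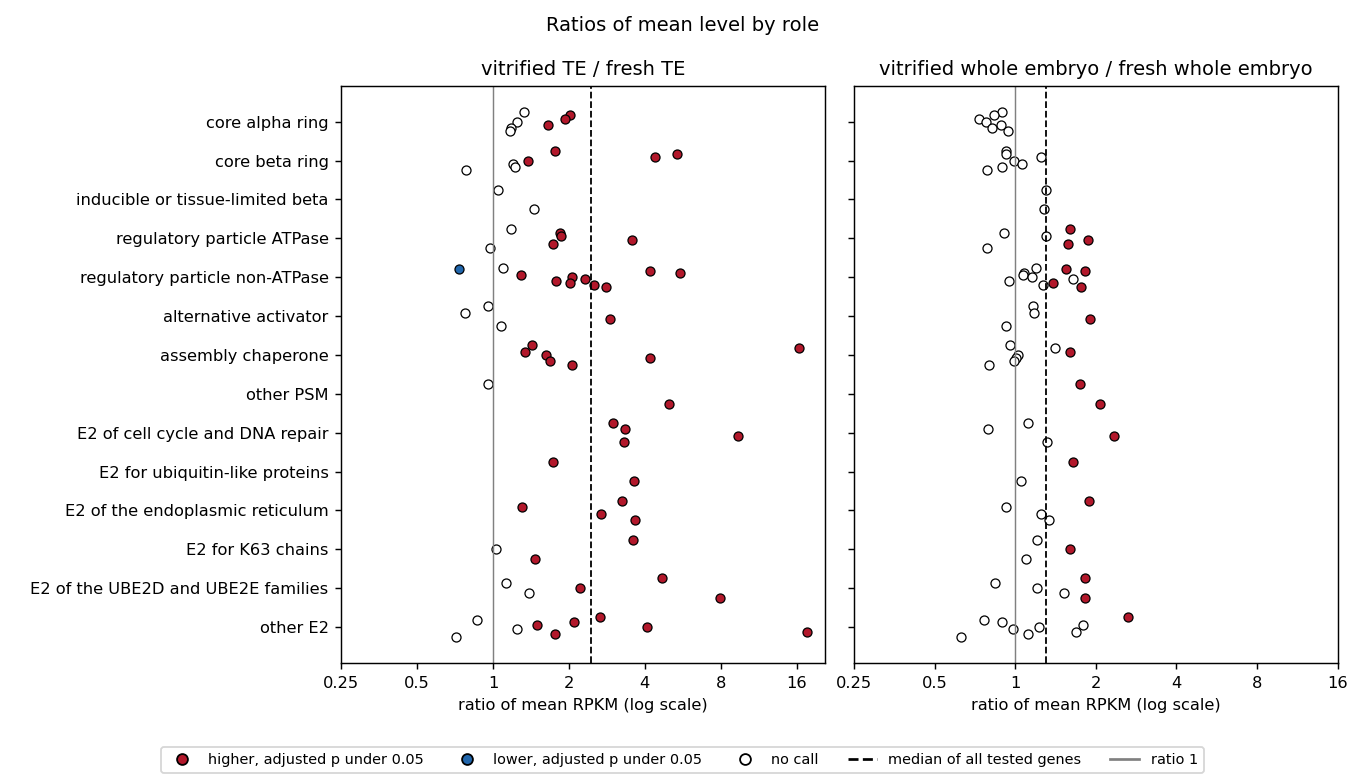
Ratio of mean RPKM, on a log axis, for each member reported, by role, in vitrified TE over fresh TE on the left and in vitrified over fresh whole embryos on the right. Points are genes and the dashed line is the median over all tested genes, 2.45 and 1.30; core subunits lie mostly left of the line in both panels, and UBE2S lies right of it in both. Filled points are calls under the deposited scaling, and 12 members of the left panel are called in opposite directions under different scalings. Such opposite calls were not counted over all tested genes.

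The same question in whole embryos rested on 2 vitrified and 6 fresh samples. Here 18 of 74 members were higher (24.3%), against 26.9% of all tested genes, and 1 was lower, against 3.94%. With the deposited scaling no core subunit of 14 was called by limma and none passed at an unadjusted p under 0.05, but 3 were called lower with median-ratio scaling and 3 with quantile normalization. Of all 10599 tested genes 740 and 651 were called lower with these 2 scalings. The core subunits had a median ratio of 0.890, below the all-gene median of 1.30, with 2 of 14 above 1 and none above the all-gene median. The regulatory particle had 7 of 17 subunits called higher and a median ratio of 1.31, and the E2 genes had 7 of 28 called higher, 1 lower and a median ratio of 1.22. Under all 4 scalings PSMC4, PSMD12 and UBE2S were called higher, 3 of 74 members or 4.05%, against 7.88% of all tested genes, and 1 of 74 lower, or 1.35%, against 3.11%. Without overlap, 22 members lay higher, against 29.4% of all tested genes, and 4 lay lower, against 6.54%. The count of 18 fell to 3 without vitrified whole embryo 2 and to 15 without vitrified whole embryo 1, whereas over all genes it was 962 and 2773, against 2852 with both.

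PSMC4 had 12.3 and 15.1 RPKM in the 2 vitrified whole embryos, against 5.99 to 9.20 RPKM with a median of 6.89 in the 6 fresh ones. Both vitrified samples lay above every fresh one (1.88 times higher, log2 change 0.83 ± 0.15, limma adjusted p = 4.34e-04). PSMD12 had 7.06 and 7.97 RPKM in vitrified whole embryos, against 3.18 to 5.29 RPKM with a median of 4.05 in fresh ones, likewise without overlap (1.83 times higher, log2 change 0.75 ± 0.15, adjusted p = 0.00110). Both calls held in all 33 alternatives. PSMD11, lower in vitrified TE, was higher here, with 4.45 and 5.52 RPKM in vitrified whole embryos, against 2.82 to 3.57 RPKM in fresh ones (1.55 times higher, log2 change 0.50 ± 0.15, adjusted p = 0.0147). That call was lost under median-ratio and quantile scaling.

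PSMA3, an alpha ring subunit, had 12.3 and 12.8 RPKM in vitrified whole embryos, against 13.3 to 24.8 RPKM with a median of 16.0 in fresh ones. Both vitrified values lay just under the lowest fresh value, with no call by the deposited scaling and a lower call with median-ratio scaling (log2 change -0.69) and quantile normalization (-0.63). PSMB2 had 14.7 and 15.8 RPKM in vitrified whole embryos, inside the 9.47 to 22.2 RPKM of the fresh ones. PSMA7 had 63.5 and 98.9 RPKM, against 70.1 to 98.4 RPKM, so that its 2 vitrified values stood on either side of the fresh range.

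UBE2S had 164 and 238 RPKM in the 2 vitrified whole embryos, against 45.6 to 123 RPKM with a median of 87.0 in the fresh ones. Both vitrified samples exceeded the highest fresh one (2.33 times higher, log2 change 1.27 ± 0.31, limma adjusted p = 0.00430). Without vitrified whole embryo 2 the call was lost (adjusted p = 0.119, with a range of 7.67e-04 to 0.119 over 33 alternatives). PSME3, a nuclear activator, had 7.72 and 9.28 RPKM in vitrified whole embryos, against 2.21 to 6.32 RPKM in fresh ones (1.90 times higher, adjusted p = 0.0266), and lost its call in 8 of 33 alternatives.

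**Figure D3:**
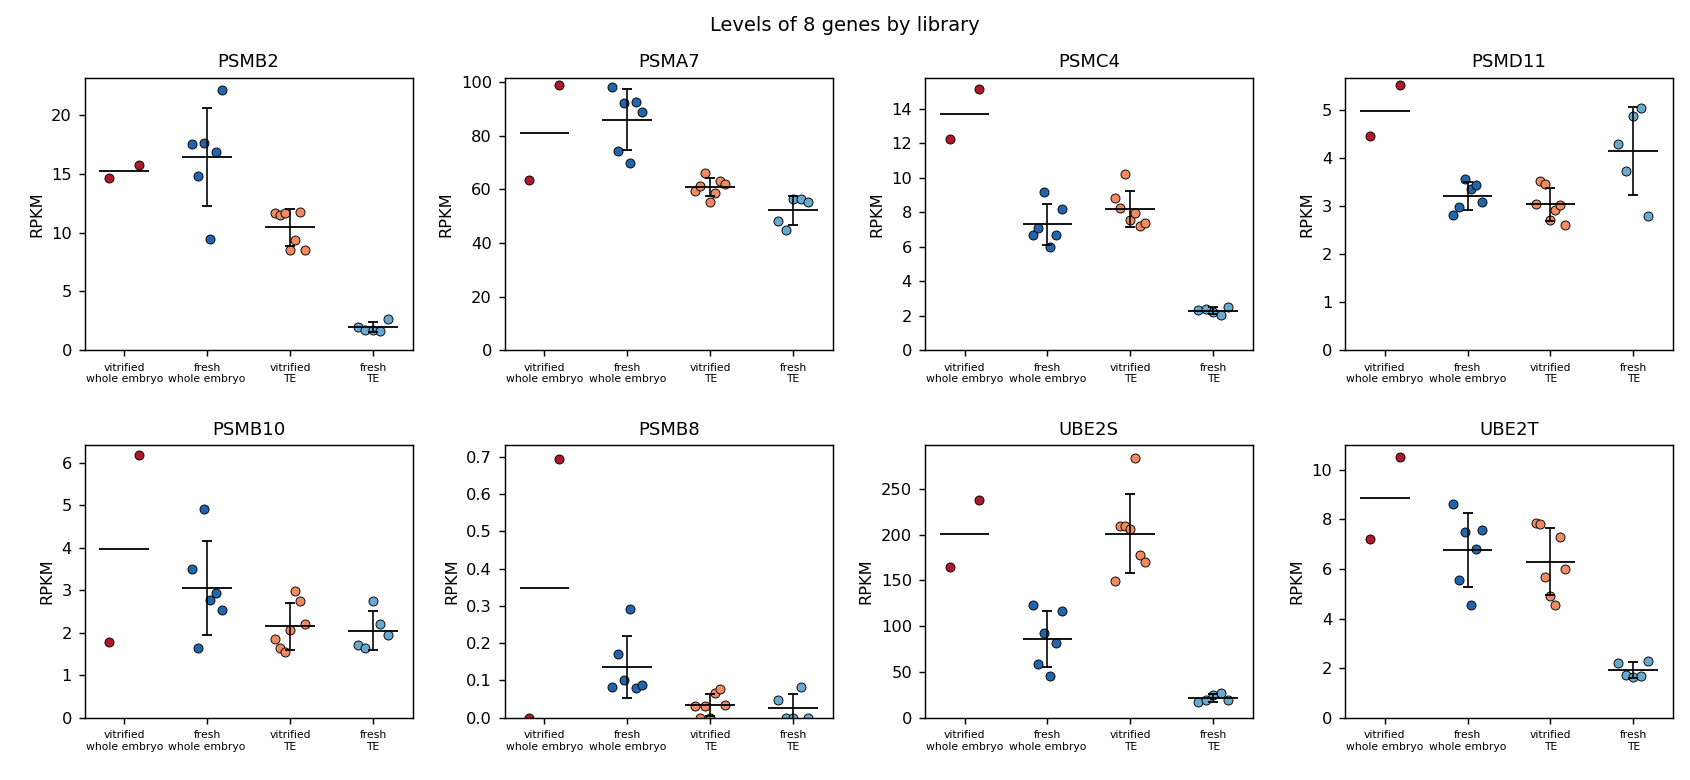
RPKM of 8 members in each library, 1 panel per gene with its own axis, by group from vitrified whole embryo through fresh whole embryo and vitrified TE to fresh TE. Points are libraries, with the mean as a line and bars of 1 SD for groups of 5 or more. PSMB2, PSMC4, UBE2S and UBE2T are lowest in fresh TE. PSMA7 runs from 44.7 to 98.9 RPKM over all libraries, and the mean of PSMD11 is highest in the 2 vitrified whole embryos.

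Whether the effect of vitrification differed between whole embryos and TE was tested by the difference of the 2 log2 changes, whole embryo minus TE. This difference includes fresh TE, whose features of makeup cannot be told apart from a differing effect of vitrification. Of 74 members 23 were lower (31.1%), against 28.4% of all tested genes, and 2 were higher, UBE2V1 and PSMD11, against 3.98%. Under all 4 scalings 9 members were lower (12.2%, against 10.7% of all tested genes) and the same 2 were higher (2.70%, against 3.72%). PSMB2 was among the 9, with a difference of -2.02 ± 0.27 (limma adjusted p = 2.46e-05), from a change of 1.95 in TE and none called in whole embryos. PSMB2 had 14.7 and 15.8 RPKM in vitrified whole embryos and 9.47 to 22.2 in fresh ones. In TE it had 8.53 to 11.8 RPKM in vitrified and 1.65 to 2.66 in fresh samples. UBE2S differed by -1.89 ± 0.38 (adjusted p = 9.93e-04), UBE2Q1 by -1.08 ± 0.13 (1.33e-05), UBE2J2 by -1.17 ± 0.19 (1.91e-04) and PSMG2 by -1.60 ± 0.29 (4.53e-04). PSMD11 differed by 0.84 ± 0.18 (adjusted p = 0.00189), the opposite direction to the 23, and the test held in all 32 alternatives. UBE2V1, a catalytically inactive partner of UBE2N, had 4.89 and 5.61 RPKM in vitrified whole embryos, 2.72 to 3.47 in fresh whole embryos, 2.36 to 3.72 in vitrified TE and 2.74 to 3.12 in fresh TE, so that the vitrified whole embryos stood above all other libraries.

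Fresh whole embryos and fresh TE were compared to place the tissue difference, with fresh TE shared with the comparison of vitrified and fresh TE. Of 74 members 57 were higher in fresh whole embryos (77.0%), against 60.0% of all tested genes, and 4 were lower (5.41%), against 5.97%. Without overlap, 51 lay higher, against 48.4% of all tested genes, and none lay lower, against 2.94%. All 14 core subunits were called higher, with a median ratio of 2.74 against 2.18 over all tested genes. The regulatory particle had a median ratio of 2.17 and the E2 genes 2.67. The 4 scalings, in the order used above, put the all-gene median log2 change at 0.14, 0.063, 0.0078 and -0.013, and the sign differed between them for 29 members. How many of all tested genes changed sign here was not counted either. The core split was 11 higher and none lower per M listed-gene reads, 7 and 2 with median-ratio scaling and 8 and 1 with quantile normalization, and 6 core subunits were higher under all 4 (PSMA2, PSMA3, PSMA4, PSMA5, PSMB2 and PSMB3). Under the same 3 scalings 4204 higher and 1696 lower, 3164 and 2670, and 2504 and 3675 of all 10599 tested genes were called. Over all members 24 were higher under all 4 scalings (32.4%, against 23.3% of all tested genes) and 4 lower (5.41%, against 5.96%).

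PSMB2 had 9.47 to 22.2 RPKM in fresh whole embryos with a median of 17.2, against 1.65 to 2.66 RPKM in fresh TE, a ratio of 8.40 (log2 change 2.53 ± 0.16, limma adjusted p = 3.93e-10). PSMA3 had 13.3 to 24.8 RPKM in fresh whole embryos, against 3.40, 3.20, 4.08, 4.32 and 5.03 RPKM in fresh TE, a ratio of 4.25 (log2 change 1.84 ± 0.15, adjusted p = 1.03e-08). Neither gene overlapped between the groups. UBE2B, an E2 of DNA damage tolerance and of spermatogenesis in mice, had 3.62 to 6.22 RPKM in fresh whole embryos with a median of 4.67, against 0.565, 0.396, 0.616, 0.610 and 0.971 RPKM in fresh TE, 7.48 times higher in the mean. The 4 members lower in fresh whole embryos under every scaling were PSMD11, PSMC3IP, UBE2O and UBE2Z. The call of PSMD11 (log2 change -0.27 ± 0.11, adjusted p = 0.0353) was lost in 9 of 33 alternatives. PSMC3IP had 1.70 to 4.23 RPKM in fresh whole embryos, against 2.30 to 5.12 RPKM in fresh TE, with overlap (1.71 times lower in the mean, log2 change -0.59 ± 0.17, adjusted p = 0.00526). UBE2Z, which charges the ubiquitin-like protein FAT10, had 0.294 to 0.824 RPKM in fresh whole embryos and 0.571 to 1.08 RPKM in fresh TE.

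Among vitrified samples, whole embryos were above TE for 30 of 74 members (40.5%), against 15.3% of all tested genes. None was lower by limma, nor at an unadjusted p under 0.05, against 3.59% of all tested genes. Without overlap, 39 lay higher, against 20.4% of all tested genes, and 2 lay lower, against 5.94%. These 2 vitrified whole embryos also serve the comparison with fresh whole embryos, and the 7 vitrified TE samples that with fresh TE. Median ratios were alike in both parts of the complex, at 1.58 over the core and 1.53 over the regulatory particle, against 1.16 over all tested genes. All 14 core subunits lay above the all-gene median. Single ratios ran from 1.19 to 2.05 in the core and from 0.892 to 2.38 in the regulatory particle. The spread of the log2 ratios over the 31 constitutive subunits was 0.29 (SD), against 0.767 over all tested genes. A smaller spread was not particular to the vitrified samples. It was 0.757 against 1.55 in vitrified against fresh TE and 0.408 against 0.902 in vitrified against fresh whole embryos. In fresh whole embryos against fresh TE it was 0.794 against 1.42. The all-gene spread includes genes with as few as 10 reads in 2 libraries, and no set of genes of like level was compared. Whether the smaller spread is particular to these subunits was therefore not tested. PSMA1 had 31.7 and 21.9 RPKM in vitrified whole embryos, against 8.88 to 17.1 RPKM with a median of 14.6 in vitrified TE, without overlap (2.05 times higher, log2 change 0.99 ± 0.28, limma adjusted p = 0.0212). PSME2, a subunit of the interferon-inducible activator, had 13.1 and 13.4 RPKM in vitrified whole embryos, against 4.55 to 10.6 RPKM in vitrified TE (log2 change 0.97 ± 0.23, adjusted p = 0.0103). UBE2S did not differ beyond its spread, at 164 and 238 RPKM in vitrified whole embryos against 150 to 284 in vitrified TE (log2 change 0.00 ± 0.30, adjusted p = 0.994). Without vitrified whole embryo 2 no member was called, and over all genes the count of higher calls was 115, against 1617 with both libraries. Under all 4 scalings 3 members were higher, PSME2, UBE2G1 and UBE2V1 (4.05%, against 2.42% of all tested genes).

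The balance within the complex and within the E2 family is given as a description. The reads of the 14 core subunits over those of the 17 regulatory particle subunits stood at 2.52 and 2.16 in vitrified whole embryos, 3.34 ± 0.429 in fresh whole embryos (SD, n = 6), 2.14 ± 0.209 in vitrified TE (n = 7) and 2.27 ± 0.284 in fresh TE (n = 5). Fresh whole embryos, at 2.58 to 3.88, lay above both vitrified groups without overlap and overlapped fresh TE, at 2.07 to 2.76. UBE2S made up 26.7 and 34.6% of the E2 reads in vitrified whole embryos, 16.6 ± 3.86% in fresh whole embryos, 36.1 ± 5.08% in vitrified TE and 9.69 ± 1.33% in fresh TE. Both vitrified groups thus lay above both fresh groups, which in turn did not overlap each other. A common factor for all genes of a library does not change either measure.

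**Figure D4:**
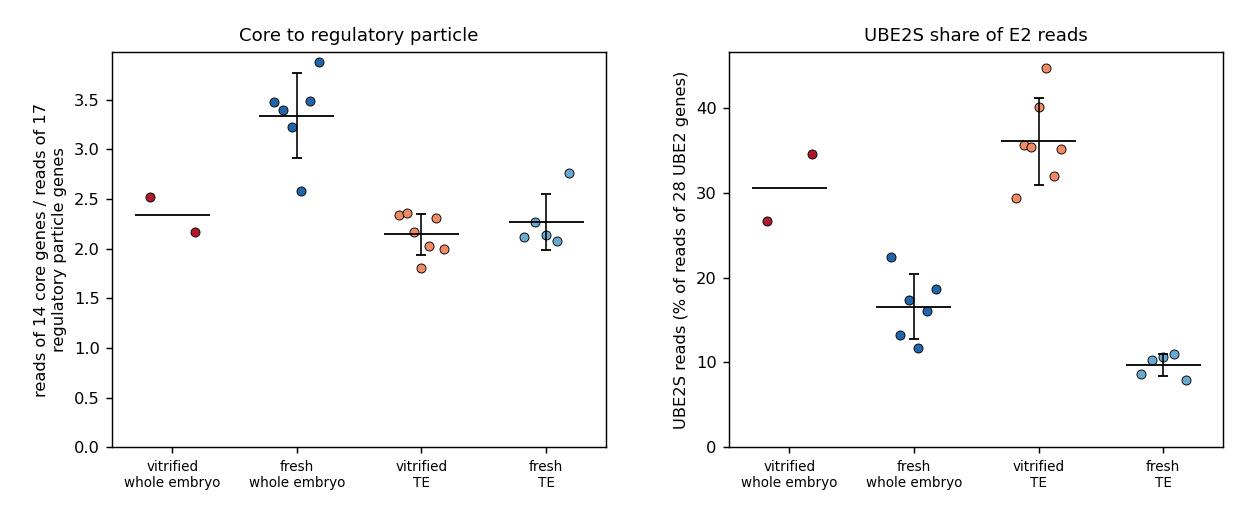
Ratio of core to regulatory particle reads (left) and UBE2S as a percentage of all E2 reads (right) in each library, by group from vitrified whole embryo through fresh whole embryo and vitrified TE to fresh TE. Points are libraries and bars show the mean and 1 SD for groups of 5 or more; the core ratio is highest in fresh whole embryos at 2.58 to 3.88, and the UBE2S share is 26.7 to 44.8% in vitrified samples, against 7.92 to 22.5% in fresh samples.

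Of the inducible beta subunits, which replace their constitutive counterparts in the immunoproteasome, PSMB8 and PSMB9 were near the detection limit. PSMB10, on 25 to 146 reads per library, had 1.77 and 6.17 RPKM in vitrified whole embryos, 1.63 to 4.91 in fresh whole embryos, 1.54 to 2.99 in vitrified TE and 1.63 to 2.75 in fresh TE, with overlap between all groups and no call in any comparison with the deposited scaling. In vitrified against fresh TE it was called lower with median-ratio scaling (log2 change -0.74, limma adjusted p = 0.00145) and with quantile normalization (-0.80, adjusted p = 5.26e-04). It was also called higher in vitrified whole embryos without vitrified whole embryo 1 (adjusted p = 0.0386 against fresh whole embryos and 0.0113 against vitrified TE), and in fresh whole embryos against fresh TE without fresh whole embryo 2 (adjusted p = 0.0446). PSMB9 had 0 to 12 reads per library and was not called. PSMB8 had 0 and 21 reads in the 2 vitrified whole embryos, 3 to 6 in fresh whole embryos, and 0 to 2 in vitrified as in fresh TE. The 21 reads of PSMB8 and the highest PSMB10 value both came from vitrified whole embryo 2, the library with the highest epiblast sum. PSMB11, a subunit of the thymus, had 0 or 1 read in every library except fresh TE 1, 2 and 5, with 3 reads each, and a count of 0 allows up to 3 reads.

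Within groups the RPKM of the constitutive subunits tended to be high or low together. Fresh whole embryo 4 had the lowest RPKM of its group for 23 of the 31 subunits, against 31.6% of all tested genes, and fresh whole embryo 6 the highest for 16, against 13.3%. Fresh TE 2 was the lowest of its group for 21 of 31, against 30.2% of all tested genes, and vitrified whole embryo 1 was the lower of its pair for 25 of 31, against 64.6%. The coefficient of variation of the core subunits had a median of 25.3% among fresh whole embryos, 15.4% among vitrified TE and 16.7% among fresh TE, and the corresponding medians over all tested genes were 28.4%, 24.6% and 30.3%. Per M listed-gene reads fresh whole embryo 4 stayed lowest of its group, at 6191 core and 2400 regulatory particle reads. Fresh TE 2 did not, at 5120 and 2263, with fresh TE 1 at 5109 core and fresh TE 5 at 2192 regulatory particle reads. Vitrified whole embryos 1 and 2 stood at 8163 and 8199 core reads and at 3243 and 3792 regulatory particle reads.

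Other genes of the pathway were followed as lists. In vitrified against fresh TE, 10 of 13 tested ubiquitin and ubiquitin-like genes were higher and 2 lower, 6 of 8 E1 genes were higher and none lower, 11 of 15 genes of the anaphase-promoting complex were higher and 1 lower, and 15 of 22 deubiquitinases were higher and 1 lower. Of 6 E2 genes outside the UBE2 symbols 4 were higher and 1 lower, and of 19 cullin scaffolds and adaptors 12 and 2. Of 21 HECT, RING and U-box ligases 18 were higher and none lower, and of 15 genes of the segregase VCP and its cofactors 10 and 1. These shares stood beside 69.0% higher and 6.66% lower over all tested genes. Under all 4 scalings the higher and lower counts were 6 and 2 for the ubiquitin genes, 1 and 0 for the E1 genes, 4 and 1 for the anaphase-promoting complex and 4 and 1 for the deubiquitinases, beside 25.4% and 6.66% of all tested genes. They were 3 and 1 for the E2 genes outside the UBE2 symbols, 2 and 2 for the cullin list, 7 and 0 for the ligases and 3 and 1 for the VCP list. CDC20, the activator of the anaphase-promoting complex, averaged 31.9 ± 5.32 RPKM in vitrified TE and 6.59 ± 1.49 in fresh TE (limma adjusted p = 1.07e-09), and 35.8 RPKM in vitrified whole embryos against 15.1 in fresh whole embryos (adjusted p = 9.14e-04). CDC34, an E2 of cullin ligases outside the UBE2 symbols, averaged 4.15 ± 0.676 RPKM in vitrified TE and 0.695 ± 0.108 in fresh TE (adjusted p = 3.48e-08), and 6.28 against 2.66 RPKM in vitrified and fresh whole embryos (adjusted p = 0.00174).

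CDC20 and CDC34 were higher in vitrified TE under all 4 scalings. Of 17 tested proteasome partners outside the PSM symbols, 10 were higher and 3 lower in vitrified TE, beside 69.0% and 6.66% of all tested genes. Under all 4 scalings 1 was higher and 3 were lower, beside 25.4% and 6.66% of all tested genes. SEM1, a small subunit of the lid, was lower under all 4 scalings, at 139 ± 23.0 RPKM in vitrified TE and 339 ± 75.0 in fresh TE (log2 change -1.27, limma adjusted p = 1.76e-06). USP14, a deubiquitinase that docks on the regulatory particle, was 2.35 times higher, at 1.30 ± 0.177 against 0.551 ± 0.0663 RPKM (adjusted p = 8.39e-07), with a call under 2 of the 4 scalings. In vitrified against fresh whole embryos 7 of these 17 partners were higher and none lower, 4 of 15 genes of the anaphase-promoting complex were higher and none lower, and 3 of 13 ubiquitin genes were higher and 1 lower, beside 26.9% higher and 3.94% lower over all tested genes. There 2 partners, 1 gene of the anaphase-promoting complex and 2 ubiquitin genes were higher under all 4 scalings, and 1 ubiquitin gene was lower, beside 7.88% and 3.11% of all tested genes. In these whole embryos 11 of 21 ligases were higher and 1 lower with the deposited scaling, and 1 and 1 under all 4. The cullin list had 4 of 19 higher and 2 lower, the VCP list 3 of 15 and none, and the E2 genes outside the UBE2 symbols 2 of 6 and none. Under all 4 scalings these became 2 and 2, 1 and 0, and 1 and 0. Of 10 tested genes of interferon response and antigen processing, 2 were higher in vitrified TE and none lower, beside 69.0% and 6.66% of all tested genes. In vitrified whole embryos 3 were higher and none lower, beside 26.9% and 3.94%. Under all 4 scalings 1 was higher in vitrified TE and none in vitrified whole embryos, beside 25.4% and 7.88% of all tested genes.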

How the data were processed

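The deposited table gave 1 value per gene for each of 20 libraries of bovine embryos, in RPKM with an offset of 0.01 added by the authors. The unit was inferred from the values: after the offset was removed, 94.5 to 95.9% of values under 1000 reads fell within 0.1 of a whole read for kilobases of genomic span (median 16.8 kb). FastQC, STAR 2.5.3a, Partek and the UMD3.1 assembly are named, per the submitters' processing notes. How reads were counted, with or without strand, is not given in the sources used here. Since the values were normalized, no count test was run.

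A gene entered the test if 2 or more libraries held 10 or more of its recovered reads, which 10599 of 15542 did. The offset was subtracted, log2(RPKM + 1) taken and a mean fitted for each of the 4 groups with limma 3.58.1 in R 4.3.3 (eBayes with trend and robust fitting, statmod 1.5.0). P-values were adjusted by Benjamini-Hochberg over all tested genes, with a threshold of 0.05. The fit was tested on simulated data. Log2 changes are on the log2(RPKM + 1) scale, where low genes change less than in ratio, and ratios are of mean RPKM. Limits set by read numbers speak of counting error alone.

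Each comparison was repeated with other pseudocounts, filters and scalings (per M listed-gene reads, median-ratio, quantile), with only the groups compared, sample weights, a replicate block, near-identical fresh TE libraries averaged, and without each library. The replicate numbers do not pair the samples. A call under all 4 scalings means an adjusted p under 0.05 in the same direction with the deposited scaling and each of the 3 others.

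Test values are given, among members with a mean of at least 1 RPKM in the higher group, for the 12 highest and 12 lowest called log2 changes in vitrified against fresh TE, for the 5 highest and 5 lowest in the other comparisons, for the 5 smallest p of the difference of effects, and for PSMB8, PSMB9, PSMB10, PSMB11, UBE2S, UBE2T and UBE2M where tested. Pathway lists gave up to 3 members with the smallest p in vitrified against fresh TE. The members and lists were chosen with earlier results of these data known. PSMA7, PSMB5, PSMB7, PSMC6, UBE2K, UBE2R2, UBE2V1, PSMD5 and PSMD11 in the difference of effects were singled out after their values were seen. PSMA8, UBE2D3, UBE2E1 and UBE2L6 were not analysed here, and some genes that stay in the counts are not reported by name.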

Additional observations from a re-analysis of the deposited data

Results flagged for a closer look

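In 129 tests for a single library far from the rest of its group, 4 stood apart, and chance gives about 1 in 20. PSMA3 in fresh whole embryo 6 stood at 24.8 RPKM, PSMC3IP in fresh whole embryo 4 at 4.23 RPKM, UBE2Q1 in fresh TE 5 at 1.32 RPKM, and the ratio of core to regulatory particle reads in fresh TE 5 at 2.76.

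The log2 change from fresh to vitrified samples differed between whole embryos and TE for 25 of 74 members by limma's test of the difference, whole embryo minus TE. Of the 74, 23 were lower (31.1%) and 2 higher (2.70%), beside 28.4% and 3.98% of all tested genes, so these counts were near the all-gene shares. Fresh TE enters this test, so its features of makeup cannot be told apart from a differing effect of vitrification. Among core subunits the difference was -1.17 for PSMA2, -1.19 for PSMA3, -0.73 for PSMA5, -0.85 for PSMB1, -2.02 for PSMB2 and -1.66 for PSMB3. In the regulatory particle it was -0.83 for PSMC2, -0.64 for PSMC4, -0.77 for PSMD2, -0.91 for PSMD7, -0.69 for PSMD12 and 0.84 for PSMD11. Among assembly chaperones it was -0.53 for PSMD5, -1.60 for PSMG2 and -1.19 for PSMG4. Among E2 genes it was -1.19 for UBE2B, -1.17 for UBE2J2, -1.20 for UBE2L3, -1.08 for UBE2M, -0.88 for UBE2N, -1.08 for UBE2Q1, -1.89 for UBE2S, -0.96 for UBE2T and 0.52 for UBE2V1. Of the members given, PSMB2, PSMB3, PSMD5, PSMG2, UBE2B, UBE2J2, UBE2Q1 and UBE2S were called lower under all 4 scalings, and PSMD11 and UBE2V1 higher. Over all tested genes 10.7% were called lower and 3.72% higher under all 4.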

How the results depend on the processing

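Over 78 values of single members and 2559 alternatives, 2332 kept direction and side of the threshold, 149 lost a call, 3 gained one and 75 turned direction, 50 of these by scaling; the cause was not tested. In vitrified against fresh TE the 51 higher and 1 lower calls became 31 and 16 per M listed-gene reads, 19 and 32 with median-ratio scaling and 18 and 32 with quantile normalization; the lower count was 2 without division by span, 2 without a filter, 2 at 50 reads or more, 4 with sample weights and 0 with near-identical libraries averaged, and leaving out 1 library gave 48 to 51 higher and 1 to 3 lower. For vitrified against fresh TE the 3 scalings gave 5237 higher and 1665 lower, 3720 and 2920, and 2776 and 4100 over all 10599 tested genes. In whole embryos the 18 higher and 1 lower became 5 and 7 (median-ratio), 5 and 8 (quantile), 10 and 0 (only the groups compared) and 8 and 0 (sample weights), with 3 to 19 and 0 to 1 when 1 library was left out. There all tested genes gave 1123 and 740, 920 and 651, 1921 and 236, and 1611 and 152 in the same 4 settings. The difference of effects, 2 higher and 23 lower, became 7 and 12, 15 and 9, and 20 and 9 under the 3 scalings, with 1 to 3 and 15 to 27 when 1 library was left out. All tested genes gave 977 higher and 1748 lower, 1490 and 1389, and 2064 and 1199 under these scalings. Fresh whole embryos against fresh TE, 57 and 4, gave 30 and 19 (median-ratio), 26 and 23 (quantile), 8 lower per M listed-gene reads, 2 lower with only the groups compared, 1 lower with averaged libraries, and 56 to 60 and 1 to 4 when 1 library was left out. Over all tested genes median-ratio gave 3164 and 2670 and quantile 2504 and 3675. The lower counts of the next 3 settings were 1696, 636 and 512 there. Vitrified whole embryos against vitrified TE, 30 higher, gave 13 with a pseudocount of 0.01, then 19, 4 and 5 under the 3 scalings, 3 with sample weights, and 0 to 34 when 1 library was left out, with 0 lower throughout. Of all tested genes 500 were higher with that pseudocount, 898, 329 and 275 under the 3 scalings and 155 with sample weights.

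Same-numbered samples did not deviate together (correlations of -0.19 to 0.31), so the numbers do not pair them. With the replicate block the calls were 48 higher and 1 lower in vitrified against fresh TE, 16 and 1 in whole embryos, 2 and 20 for the difference of effects, 57 and 1 in fresh whole embryos against fresh TE, and 15 and 0 in vitrified whole embryos against vitrified TE. In the same order, all tested genes gave 7155 and 659, 2325 and 254, 303 and 2390, 6274 and 592, and 676 and 114.

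Log2 changes that turned in vitrified against fresh TE, with median-ratio and then quantile scaling, were -0.20 and -0.23 for PSMC2, -0.36 and -0.37 for PSMA5, -0.38 and -0.38 for PSMG1, and -0.18 and -0.24 for PSMD4, and with quantile scaling alone -0.028 for PSMD3. With all 3 scalings (per M listed-gene reads first) they were -0.17, -0.65 and -0.063 for PSMB4, -0.090, -0.51 and -0.52 for UBE2V2, -0.11, -0.54 and -0.54 for PSMD10, -0.18, -0.64 and -0.59 for UBE2G2, -0.18, -0.52 and -0.58 for PSMD9, -0.46, -0.74 and -0.80 for PSMB10, and -0.017, -0.047 and -0.089 for PSMB9. PSMB10 also gave -0.053 with sample weights and -0.021 to 0.12 when 1 library was left out. In fresh whole embryos against fresh TE the 3 scalings gave -0.054, -0.32 and -0.38 for PSMB7, -0.27, -0.45 and -0.48 for UBE2D2, and -0.097, -0.33 and -0.37 for PSMB10; median-ratio gave -0.0027 and quantile -0.030 for PSMB9, and quantile -0.030 for PSMD14. In vitrified against fresh whole embryos median-ratio and quantile gave -0.063 and -0.093 for PSMB10 and -0.11 and -0.15 for UBE2M, and quantile gave -0.019 for PSMB9; when 1 library was left out PSMB10 ran from -0.51 to 0.87 and PSMB9 from -0.017 to 0.10. In vitrified whole embryos against vitrified TE the 3 scalings gave -0.079, -0.19 and -0.13 for UBE2S, which ran from -0.26 to 0.27 when 1 library was left out, and PSMB10 from -0.17 to 1.21. For the difference of effects PSMB10 ran from -0.55 to 0.83 and PSMB9 from -0.056 to 0.064 when 1 library was left out, and PSMB9 gave -0.034 and -0.26 with pseudocounts of 0.1 and 0.01, -0.014 without division by span, -0.0098 with sample weights and -0.0046 with averaged libraries. Depth limits members with few reads: in fresh TE, PSMD5, PSMD13, UBE2R2, UBE2D1, UBE2E3, UBE2H and PSMB9 rest on 15 reads or fewer per library.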
